A study of Homo sapiens with 6 samples.

Results

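The Hippo pathway is read here through 10 genes: the coactivators *YAP1* and *WWTR1* (which encodes TAZ), the DNA-binding partners *TEAD1* and *TEAD4*, and the target and feedback genes *CCN1*, *CCN2*, *ANKRD1*, *AMOTL2*, *AJUBA* and *LATS2*. They were chosen by name and found by matching the Ensembl identifiers of the count table to GENCODE symbols, which gave 10 of the 58825 genes in the table. RNA was sequenced from HGC-27, a gastric cancer cell line, in 6 libraries, of which 3 carry the label GC0643 overexpression and 3 the label vector control. *GC0643* is a gene that the study predicted from sequence that could not be aligned to the human reference, and the comparison asks which transcripts differ when it is overexpressed. Both groups are the same parental line. Retroviral infection and puromycin selection are stated for the line that expresses *GC0643*, while how the vector control line was made, and whether either line is a single clone, was not stated. Total counts per library lay between 20376722 and 24069166. Counts of *GC0643* itself were not analysed here, so they do not check the labels. The fold changes in the study's supplementary list for these libraries appear to run in the opposite direction to the labels, and this was not resolved. Every higher or lower below is as labelled, and would turn if the labels were exchanged. The sources used here do not say whether the libraries of a group came from separate cultures, so p-values measure the spread between these libraries, which may be technical.

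In the Hippo pathway, the MST kinases with SAV1 activate the LATS kinases with their MOB1 subunits, and LATS phosphorylates YAP and TAZ, which are then held in the cytoplasm or degraded. Unphosphorylated YAP and TAZ enter the nucleus, bind TEAD proteins and raise transcription of genes that carry the TEAD motif. Among them are the matricellular CCN genes, AJUBA and, as negative feedback, AMOTL2 and LATS2. In gastric cancer the pathway is known for YAP and TEAD activity in growth and invasion. Since YAP and TAZ are controlled mainly by phosphorylation and location, their own mRNA levels do not report their activity, whereas mRNA levels of target genes are commonly used as a readout.

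The labelled cell type was checked against its markers. HGC-27 is an undifferentiated line, and the libraries held abundant mesenchymal vimentin but little N-cadherin: *VIM* (vimentin) lay between 1421 and 1565 CPM (counts scaled to the library total) per kilobase of transcript, and the epithelial keratin *KRT8* between 2.17 and 4.39. *CDH2* (N-cadherin) had 1 to 13 counts per library. *EPCAM* and *CDH1* (E-cadherin) had at most 9 counts and *KRT18* at most 3 in any library. The gastric mucosa genes *TFF2*, *GKN1* and *GKN2*, the lymphocyte genes *CD3E*, *CD3D* and *MS4A1*, the endothelial *PECAM1* and the erythroid *HBB* were at 0 counts in all 6 libraries.

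The sequence that ties these genes to TEAD is the motif GGAATG, or CATTCC when read on the opposite strand. Both strands were searched in the RefSeq promoter windows (GRCh38.p14), which run from 250 bases before to 50 bases after a transcription start. Windows were found for 7 of the 10 genes, not for *TEAD1*, *TEAD4* or *CCN1*. The motif was in the windows of 6 of these 7 genes, the exception being *WWTR1*, and in 16.7% of all 27305 genes with a window. *CCN2* had 3 motifs, and 0.165% of all genes had 3 or more. *ANKRD1* had 2, and 1.70% of all genes had 2 or more. The stretches are shown 5′ to 3′ on the strand of the gene with the motif in capitals, because *CCN2* and *ANKRD1*, which hold the most motifs, had the lowest counts of the 10 genes in these cells. The first, from *CCN2*, is chr6:131951442-131951561, and its motifs begin 169, 104 and 95 bases before the start. The *ANKRD1* stretch is chr10:90921190-90921327, with motifs 220 and 128 bases before the start. *YAP1* itself had 1 motif, 162 bases before its start, in chr11:102110265-102110310. Of the other targets, *AMOTL2* had it on the opposite strand 69 bases before its second annotated start (chr3:134374491-134374536). *AJUBA* had it 59 bases before its second annotated start (chr14:22976876-22976921), and *LATS2* 10 bases into the transcribed side (chr13:21061560-21061589). A match describes letters and does not show binding.
CCN2: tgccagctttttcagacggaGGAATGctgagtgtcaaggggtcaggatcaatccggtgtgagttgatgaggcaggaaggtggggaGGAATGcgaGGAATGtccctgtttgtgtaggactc
ANKRD1: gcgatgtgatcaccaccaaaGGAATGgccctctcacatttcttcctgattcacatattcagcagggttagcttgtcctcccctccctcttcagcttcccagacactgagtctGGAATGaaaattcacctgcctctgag
YAP1: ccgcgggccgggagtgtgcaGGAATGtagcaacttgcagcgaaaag
AMOTL2: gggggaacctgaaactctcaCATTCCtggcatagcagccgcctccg
AJUBA: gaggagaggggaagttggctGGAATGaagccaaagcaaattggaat
LATS2: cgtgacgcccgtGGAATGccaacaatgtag

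The coactivators and *TEAD1* stood higher in the libraries labelled GC0643 overexpression, and *TEAD4* and the target genes *CCN1*, *AMOTL2* and *AJUBA* stood lower, with fold changes between −0.33 and 0.32 on the log2 scale. *LATS2* and *CCN2* had similar means in both groups with wide intervals, and *ANKRD1* was close to absent. No gene of the 10 passed the adjusted p-value of 0.05. In bulk RNA such as this, fewer cells that express a gene and less RNA per cell cannot be told apart. Genes were tested with edgeR's quasi-likelihood test on counts scaled by the trimmed mean of M values (TMM), with Benjamini-Hochberg adjustment over the 19528 genes that passed the filter on low counts, and 9 of the 10 passed that filter. Among these 9, 0 had an adjusted p under 0.05, as did 0% of all genes tested. At an unadjusted p under 0.05, 1 of the 9 stood higher (*TEAD1*) and 1 lower (*TEAD4*), where the background over all genes was 13.1% higher and 5.26% lower. With the study's thresholds, an unadjusted p under 0.05 and a fold change over 1.5, the count was 0 of 9, against 2.47% of all genes. The other tools called none of the 9 at an adjusted p under 0.05 either: edgeR's likelihood ratio test, which called 0.0819% of all genes, DESeq2, which called 0.0865% of the 12713 genes it adjusted, and limma voom, which called 0%. DESeq2 gave *CCN2* no adjusted p, so its count is over 8 genes. The estimated fold change was positive for 4 of the 9 and negative for 5, with a median of −0.03, while 51.9% of all genes were positive and 48.1% negative, with a median of 0.02. The groups did not overlap for *WWTR1* among the genes that stood higher, 1 of 9 against 11.8% of all genes. They did not overlap for *TEAD4*, *CCN1*, *AMOTL2* and *AJUBA* among those that stood lower, 4 of 9 against 10.5% of all genes.

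**Figure D1:**
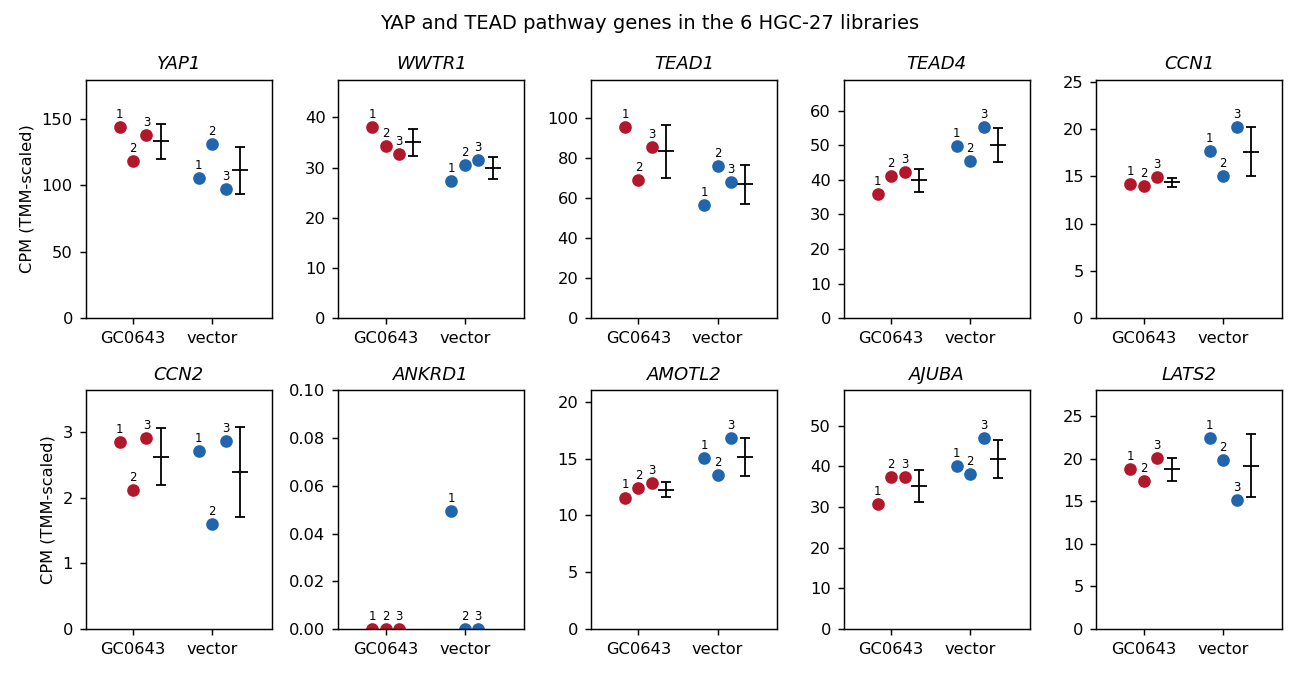
TMM-scaled CPM of the 10 genes in the 6 libraries, with GC0643 overexpression in red, vector control in blue, replicate numbers above the points, and the mean and SD of 3 libraries as bars beside the points (none for ANKRD1). TEAD4 reached at most 42.4 CPM in the GC0643 libraries and at least 45.4 in the controls, while YAP1 of vector control replicate 2, at 131 CPM, lay among the GC0643 libraries, and ANKRD1 had a single count in 1 library.

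*YAP1* (ENSG00000137693.14, chromosome 11, 102110447 to 102233424, plus strand, GRCh38), the main coactivator of the pathway, had 143, 118 and 138 CPM in GC0643 replicates 1 to 3. In the vector control libraries it had 106, 131 and 96.9 CPM. The groups overlapped: vector control replicate 2 lay above GC0643 replicate 2. The means were 133 ± 13.1 and 111 ± 17.7 CPM (SD, n = 3 each), a log2 fold change of 0.26 (SE 0.14, 95% interval −0.03 to 0.55, adjusted p = 0.30 by edgeR's quasi-likelihood test). Part of the *YAP1* gene shares 628 exonic bases with an antisense long noncoding RNA, ENSG00000254422. That gene had 562, 523 and 534 counts in the GC0643 libraries and 414, 498 and 396 in the controls, beside 2145 to 3075 counts of *YAP1*. The strand setting of the counting was not given, so reads in the shared stretch cannot be told apart.

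*WWTR1* (ENSG00000018408.14, chromosome 3, 149517235 to 149736714, minus strand), which encodes the paralogous coactivator TAZ, had 38.0, 34.3 and 32.7 CPM in the GC0643 libraries. The controls had 27.4, 30.6 and 31.6 CPM. All GC0643 libraries lay above all controls, by a margin of about 1 CPM between the nearest pair. The log2 fold change was 0.23 (SE 0.13, 95% interval −0.06 to 0.51, adjusted p = 0.33 by edgeR's quasi-likelihood test), so the interval included 0. The gene shares 756 exonic bases with *WWTR1-AS1*, which had between 180 and 260 counts per library. Per kilobase of canonical transcript, *YAP1* was the more abundant coactivator, with 24.7 ± 2.43 CPM per kilobase in the GC0643 libraries against 6.95 ± 0.538 for *WWTR1*. The ratio of *WWTR1* to *YAP1* per length was 0.283 ± 0.0281 in the GC0643 libraries and 0.292 ± 0.0512 in the controls, with no difference found (exact permutation test, two-sided p = 1, n = 3 each).

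*TEAD1* and *TEAD4*, both of which encode TEAD transcription factors, stood in opposite directions. *TEAD1* (ENSG00000187079.17, chromosome 11, 12674421 to 12944737, plus strand) had 95.1, 68.9 and 85.4 CPM in the GC0643 libraries and 56.4, 75.7 and 68.0 in the controls. GC0643 replicate 2 lay within the range of the controls, so the groups overlapped. The log2 fold change was 0.32 (SE 0.15, 95% interval 0.00 to 0.64), and in edgeR's quasi-likelihood test the unadjusted p was 0.0496 and the adjusted p 0.27. DESeq2 and limma voom put the same gene at unadjusted p-values of 0.065 and 0.050.

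*TEAD4* (ENSG00000197905.9, chromosome 12, 2959330 to 3040676, plus strand) had 36.0, 41.2 and 42.4 CPM in the GC0643 libraries. The controls had 49.7, 45.4 and 55.2 CPM, all above the GC0643 libraries. The log2 fold change was −0.33 (SE 0.13, 95% interval −0.61 to −0.05), and in edgeR's quasi-likelihood test the unadjusted p was 0.026 and the adjusted p 0.26. It was the only one of the 9 genes with an unadjusted p under 0.05 in this test, DESeq2 and limma voom alike.

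The other TEAD genes put these levels in context. Per kilobase, *TEAD4* and *TEAD2* were the most abundant of the 4 TEAD genes, at 23.3 ± 1.97 and 25.7 ± 1.15 CPM per kilobase in the GC0643 libraries and 29.3 ± 2.88 and 28.9 ± 2.93 in the controls. The ranges of *TEAD2* and *TEAD4* overlapped in both groups. *TEAD3* followed at 10.9 ± 0.483 and 12.4 ± 2.04, and *TEAD1* was lowest, at 8.83 ± 1.41 and 7.08 ± 1.03. *TEAD4* made up 31.5, 34.9 and 35.2% of the summed TEAD level in the GC0643 libraries and 37.8, 37.5 and 37.8% in the controls. The *TEAD4* shares did not overlap, and the exact permutation test gave p = 0.1, the smallest two-sided p that 3 against 3 libraries allow. *TEAD1* made up 15.1, 10.6 and 12.9% against 7.79, 11.4 and 8.46%, which overlapped (exact permutation p = 0.2). The ratio of *TEAD4* to *TEAD1* was 2.09, 3.29 and 2.73 in the GC0643 libraries and 4.85, 3.30 and 4.47 in the controls (exact permutation p = 0.1). Replicate 2 of each group nearly met, at 3.29 and 3.30.

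**Figure D2:**
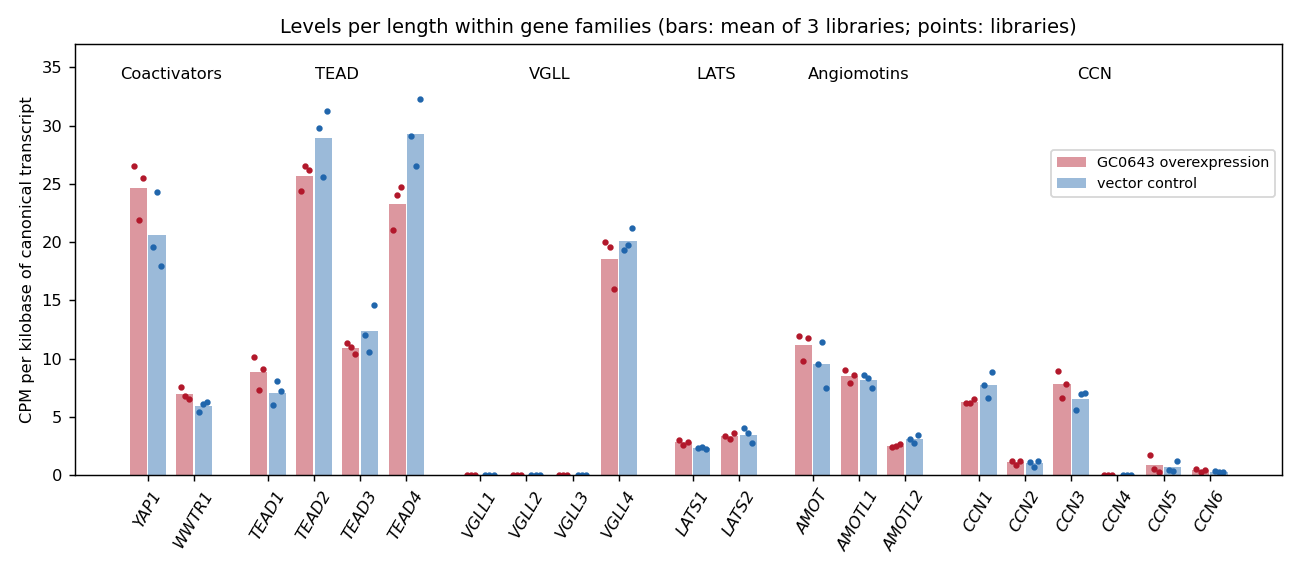
CPM per kilobase of canonical transcript for the gene families of the 10 genes, with bars for the mean of 3 libraries (GC0643 overexpression in red, vector control in blue) and points for single libraries. TEAD2 and TEAD4 were the highest TEAD genes and TEAD1 the lowest, VGLL4 was the only VGLL gene with more than 1 count, and CCN2 lay near 1 CPM per kilobase.

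Among the secreted matricellular targets, *CCN1* stood lower in the GC0643 libraries and *CCN2* was scarce in both groups. *CCN1* (ENSG00000142871.17, chromosome 1, 85580761 to 85584589, plus strand; formerly CYR61) had 14.2, 14.0 and 14.9 CPM in the GC0643 libraries and 17.6, 15.0 and 20.2 in the controls. The groups did not overlap, though GC0643 replicate 3 and vector control replicate 2 were nearly equal. The means were 14.4 ± 0.464 and 17.6 ± 2.59 CPM, with a log2 fold change of −0.29 (SE 0.15, 95% interval −0.62 to 0.03, adjusted p = 0.30 by edgeR's quasi-likelihood test). Set against the coactivator, the ratio of *CCN1* to *YAP1* per length was 0.257 ± 0.0232 in the GC0643 libraries and 0.387 ± 0.111 in the controls (exact permutation p = 0.2).

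*CCN2* (ENSG00000118523.6, chromosome 6, 131948176 to 131951372, minus strand; formerly CTGF), whose promoter window held 3 motifs, had only 61, 45 and 59 counts in the GC0643 libraries. The controls had 55, 33 and 69 counts. In CPM these were 2.85, 2.12 and 2.91 against 2.71, 1.60 and 2.87, so the groups overlapped, with the lowest value in vector control replicate 2. Its log2 fold change was 0.13 with an SE of 0.27, and its 95% interval from −0.45 to 0.71 was the widest of the 9 genes. A difference below that size was not detectable with the counts and the spread of these 6 libraries. Per length, *CCN2* stood at percentile 17.3 of all genes tested and *CCN1* at percentile 54.5. Of the other CCN genes, *CCN3* (formerly NOV) was as abundant as *CCN1*, at 7.78 CPM per kilobase in the GC0643 libraries and 6.54 in the controls against 6.31 and 7.73 for *CCN1*. *CCN5* and *CCN6* lay below 1 CPM per kilobase on average, and *CCN4* had 0 counts.

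*ANKRD1* (ENSG00000148677.6, chromosome 10, 90912096 to 90921087, minus strand), which encodes a nuclear ankyrin repeat protein and is a standard YAP reporter gene, had 1 count in vector control replicate 1 and 0 in the other 5 libraries. A count of 0 allows up to 3 counts, or 0.125 to 0.148 CPM in these libraries, a limit for counting error only. The gene did not pass the filter, no fold change was computed, and a difference between the groups was not detectable at this depth. Its window held 2 motifs, which 1.70% of genes with a window matched or exceeded.

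The remaining target genes were *AMOTL2*, *AJUBA* and *LATS2*. *AMOTL2* and *LATS2* are known to restrain YAP, and *AJUBA* is known to act on the LATS kinases. *AMOTL2* (ENSG00000114019.14, chromosome 3, 134355347 to 134375479, minus strand), an angiomotin that holds YAP at junctions and in the cytoplasm, had 11.6, 12.4 and 12.9 CPM in the GC0643 libraries and 15.1, 13.5 and 16.8 in the controls. All control libraries lay above all GC0643 libraries. For *AMOTL2* the log2 fold change was −0.30 (SE 0.15, 95% interval −0.63 to 0.02, adjusted p = 0.29 by edgeR's quasi-likelihood test). *AMOTL2* was the least abundant angiomotin, at 2.52 and 3.11 CPM per kilobase against 8.52 and 8.15 for *AMOTL1* and 11.2 and 9.49 for *AMOT*. The ratio of *AMOTL2* to *AMOTL1* was 0.297 ± 0.0306 in the GC0643 libraries and 0.385 ± 0.0663 in the controls (exact permutation p = 0.1). It shares 187 exonic bases with the pseudogene *RPL39P5*, which had 23 to 36 counts.

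*AJUBA* (ENSG00000129474.16, chromosome 14, 22971177 to 22982551, minus strand), a LIM protein that binds LATS kinases, had 30.7, 37.3 and 37.4 CPM in the GC0643 libraries. The controls had 40.1, 38.0 and 46.9 CPM. The groups did not overlap, but 2 GC0643 libraries and vector control replicate 2 lay within 1 CPM of each other. For *AJUBA* the log2 fold change was −0.25 (SE 0.14, 95% interval −0.55 to 0.05, adjusted p = 0.32 by edgeR's quasi-likelihood test). A protein-coding gene on the same strand, ENSG00000259132, shares 50 exonic bases with it and had 162 to 286 counts.

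*LATS2* (ENSG00000150457.9, chromosome 13, 20973036 to 21061586, minus strand), the kinase that phosphorylates YAP and TAZ and is itself a target of theirs, had 18.8, 17.4 and 20.1 CPM in the GC0643 libraries and 22.4, 19.9 and 15.1 in the controls. The controls held both the highest and the lowest value. Its log2 fold change was −0.03 (SE 0.16, 95% interval −0.38 to 0.32, adjusted p = 0.93 by edgeR's quasi-likelihood test), and its sign turned to 0.09 without vector control replicate 1. Per length, *LATS2* lay at 3.38 ± 0.244 and 3.45 ± 0.666 CPM per kilobase, and its paralog *LATS1* at 2.83 and 2.34. The ratio of *LATS2* to *LATS1* did not differ beyond the spread of the libraries (1.20 ± 0.0755 against 1.47 ± 0.263, exact permutation p = 0.3).

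For 8 of the 9 genes the sign of the fold change was that of the median for transcripts of similar GC content, the exception being *CCN2*. *LATS2* is among the 8 at −0.03, a sign that did not hold without vector control replicate 1. Most genes share that sign: the lower quartile was 0.12 at 40 to 45% GC. The upper quartile was 0.05 at 50 to 55% GC, −0.07 at 55 to 60% and −0.12 at 60 to 65%. *YAP1*, *WWTR1* and *TEAD1* have canonical transcripts of 43.5, 42.2 and 43.0% GC and stood higher. *TEAD4*, *AMOTL2*, *AJUBA* and *CCN1*, at 60.4, 56.3, 52.6 and 50.5% GC, stood lower. Across all 19528 genes tested, the log2 fold change correlated with transcript GC content at a Spearman rho of −0.67, a description over genes that share the same 6 libraries. Among the 3816 genes of 40 to 45% GC, the median log2 fold change was 0.27, and *YAP1*, *WWTR1* and *TEAD1* lay at percentiles 48, 41.9 and 60.6 of these genes. Thus *YAP1* and *WWTR1* lay below the median of genes of similar GC content. *TEAD4* lay at percentile 20.3 of the 2287 genes of 60 to 65% GC, *AMOTL2* at 18.3 of the 3028 genes of 55 to 60%, and *AJUBA* and *CCN1* at 17.7 and 11.8 of the 3108 genes of 50 to 55%. In that last bin, with a median of −0.09, *CCN2* (51.5% GC) lay on the positive side at percentile 83.9, and *LATS2* (51.8% GC) was near 0 at percentile 62.2. Of the 9 genes, *CCN1* was nearest an end of its bin.

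**Figure D3:**
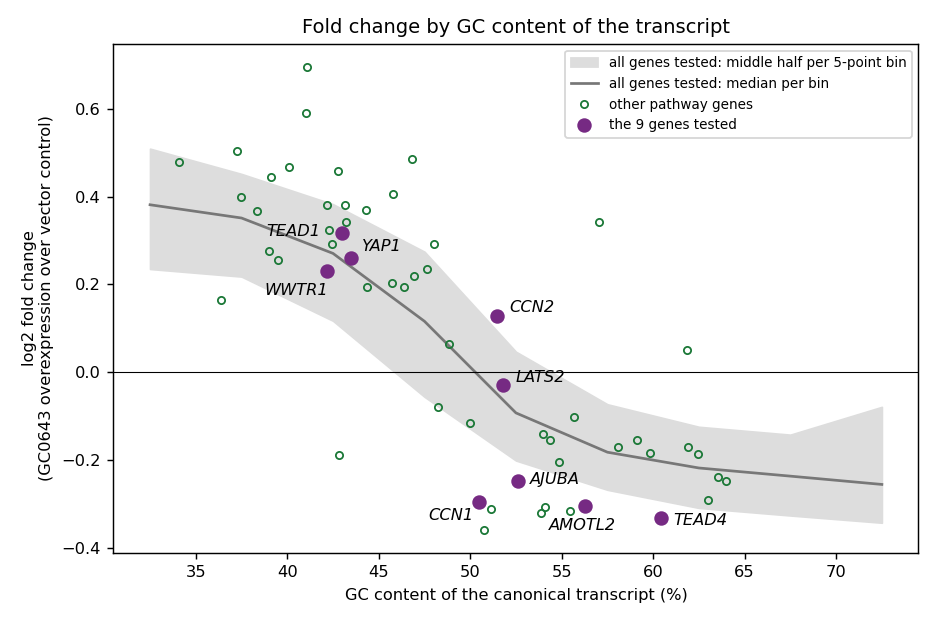
Log2 fold change (GC0643 overexpression over vector control) against the GC content of the canonical transcript, with the 9 tested genes filled and named, other pathway genes as open circles, and the median and quartiles of all genes tested per 5-point bin as a line and band. YAP1, WWTR1 and TEAD1 lie within the band near a median of 0.27, and TEAD4, CCN1, AMOTL2 and AJUBA lie below the lower quartile of their bins.

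The comparison was therefore repeated with each library corrected by a smooth curve for transcript GC content. In edgeR's quasi-likelihood test the log2 fold change of *YAP1* became 0.07 (unadjusted p = 0.44) and that of *WWTR1* −0.00 (unadjusted p = 0.99). Likewise *TEAD1* came to 0.11 (unadjusted p = 0.37) and *TEAD4* to −0.11 (unadjusted p = 0.26). *CCN1* kept most of its difference, at −0.25 (unadjusted p = 0.061 by edgeR's quasi-likelihood test), while *AMOTL2* and *AJUBA* came to −0.13 and −0.14. *CCN2* and *LATS2* came to 0.21 and 0.05. After the correction 0 of the 9 genes had an adjusted p under 0.05 in edgeR's quasi-likelihood test, as did 0% of all genes. At an unadjusted p under 0.05, 0 of the 9 remained, against 3.83% of all genes higher and 2.48% lower. A real group difference shared by genes of one GC content would be removed by the correction too, and the 2 cannot be told apart in these 6 libraries.

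**Figure D4:**
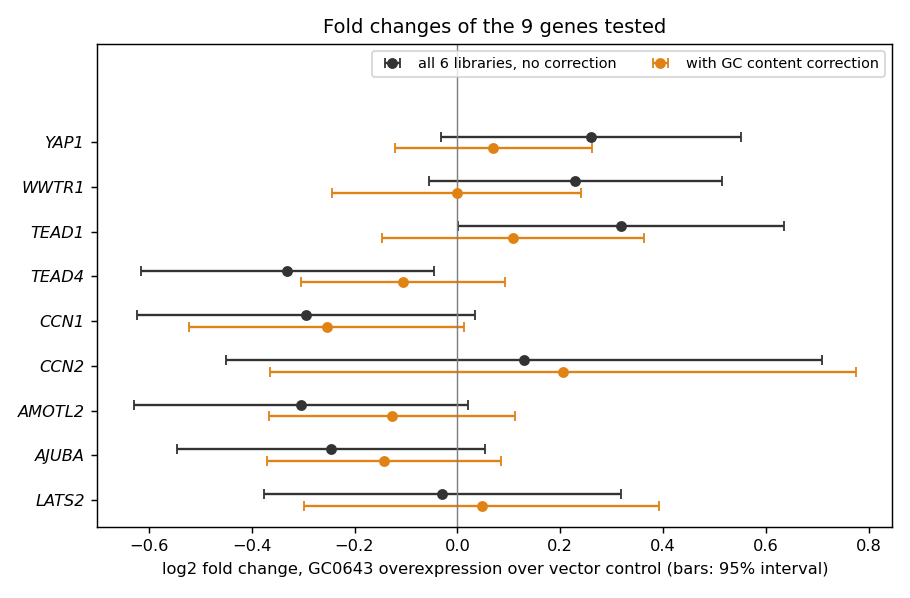
Log2 fold change with its 95% interval for the 9 tested genes, without (dark) and with (orange) correction for transcript GC content. The correction brings YAP1 from 0.26 to 0.07 and TEAD4 from −0.33 to −0.11, leaves CCN1 at −0.25, and all corrected intervals include 0.

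The libraries themselves also differed in GC content. The mean transcript GC content weighted by counts was 50.8, 51.2 and 50.9% in the GC0643 libraries and 52.1, 51.3 and 52.7% in the controls, so vector control replicate 2 lay beside the GC0643 libraries. The log2 levels of *YAP1*, *WWTR1* and *TEAD1*, averaged as deviations from each gene's mean, were 0.28, −0.01 and 0.14 in the GC0643 libraries and −0.27, 0.02 and −0.16 in the controls. The same average over *TEAD4*, *CCN1*, *CCN2*, *AMOTL2*, *AJUBA* and *LATS2* was −0.14, −0.12 and 0.01 against 0.15, −0.08 and 0.19. In both averages vector control replicate 2 and GC0643 replicate 2 lay next to each other.

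**Figure D5:**
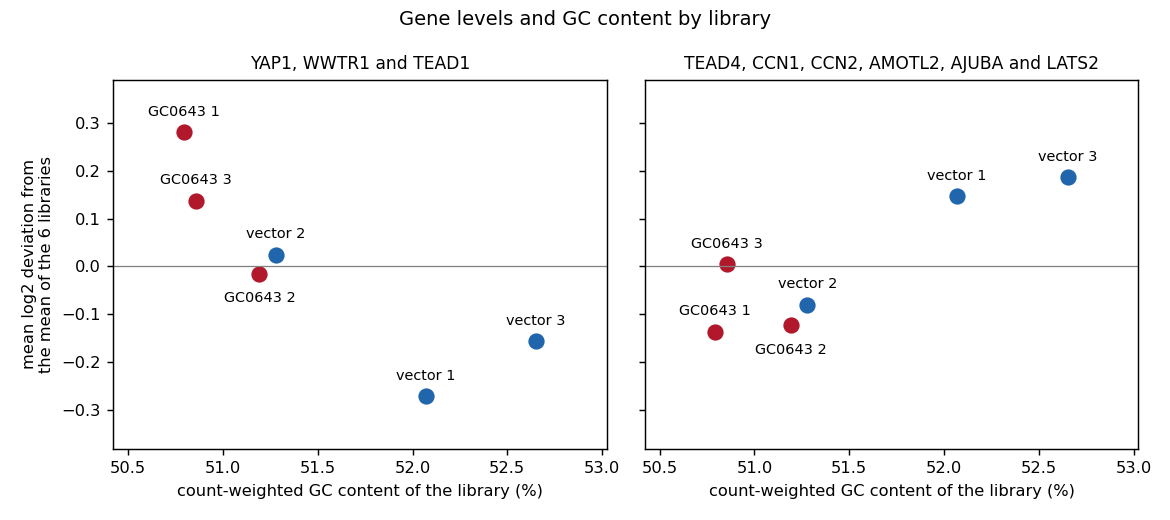
Mean log2 deviation of the 3 low-GC genes (left) and the 6 genes of 50% GC or more (right) in each library, against the library's count-weighted GC content in percent. Vector control replicate 2, at 51.3% GC, lies beside GC0643 replicate 2, at 51.2%, while vector control replicates 1 and 3, at 52.1 and 52.7%, stand apart.

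For the 9 genes, an adjusted p under 0.05 appeared only in the fit without vector control replicate 2 that had no GC correction. Without vector control replicate 2, *YAP1* had a log2 fold change of 0.40 (adjusted p = 0.038) and *TEAD4* of −0.40 (adjusted p = 0.040) in edgeR's quasi-likelihood test, and both then passed the threshold. In that fit 19.1% of all genes passed it, so 2 of 9 is close to the background. *TEAD1* and *CCN1* just missed it (adjusted p = 0.057 and 0.058), and the fold change of *CCN2* turned to −0.09. Without the same library and with the GC correction, 0 of the 9 genes passed the adjusted threshold, as did 0% of all genes, and *CCN1* alone had an unadjusted p under 0.05, where 8.4% of all genes stood higher and 4.12% lower. Its log2 fold change was then −0.34 (unadjusted p = 0.017, adjusted p = 0.30 by edgeR's quasi-likelihood test). In both of these fits the log2 fold change of *CCN1* lay below −0.3. Without vector control replicate 3 instead, and with no GC correction, it was −0.19 (unadjusted p = 0.24 by edgeR's quasi-likelihood test). Of the 6 such fits that each left out 1 library, 1 gave *CCN1* an unadjusted p under 0.05.

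The rest of the pathway was read from a list of 53 further genes, of which 49 were tested. The upstream kinases and regulators tended to positive values: 20 of 30 were positive, beside 51.9% of all genes. Their median log2 fold change was 0.27, and that of all genes 0.02. An unadjusted p under 0.05 was found for 12 that stood higher and for 1 that stood lower, against the background of 13.1% and 5.26%. The 1 lower gene, named after its values were seen, was *STRN4*, a subunit of the STRIPAK phosphatase complex, and its transcript has 63.0% GC. After the GC correction 21 of the 30 were positive, beside 11043 of all 19528 genes, and the median was 0.08, beside 0.03. At an unadjusted p under 0.05, 2 of the 30 then stood higher and 0 lower, against 3.83% and 2.48% of all genes. With edgeR's quasi-likelihood test 0 of the 49 passed the adjusted threshold, nor did any with limma voom. The likelihood ratio test and DESeq2 each called 1, beside 0.0819% and 0.0865% of all genes that they adjusted. That gene was *FRMD6*, which encodes the FERM protein Willin upstream of the MST kinases.

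*FRMD6* (chromosome 14, 51489100 to 51730727) had 61.2, 43.0 and 51.0 CPM in the GC0643 libraries and 28.8, 37.2 and 29.9 in the controls. The groups did not overlap. Its log2 fold change of 0.69 (SE 0.16, unadjusted p = 0.00047, adjusted p = 0.26 by edgeR's quasi-likelihood test) lay at percentile 97.9 of genes of like GC content, and it was 0.45 (unadjusted p = 0.0020) after the GC correction. The likelihood ratio test gave an adjusted p of 0.047 and DESeq2 one of 0.0497, both close to the threshold. The LATS cofactors *MOB1A* and *MOB1B*, of 37.3 and 34.1% GC, had log2 fold changes of 0.50 and 0.48 (unadjusted p = 0.010 and 0.0076), which the correction brought to 0.21 and 0.14.

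Of the 6 nuclear partners listed, 3 were tested: *TEAD2*, *TEAD3* and *VGLL4*, a repressive TEAD cofactor. Their log2 fold changes were −0.17, −0.18 and −0.12, and none had an unadjusted p under 0.05. *VGLL1* and *VGLL3* had 0 counts in all 6 libraries and *VGLL2* had 1 count in all, while *VGLL4* stood at 18.5 and 20.1 CPM per kilobase. *TEAD2* and *TEAD3* lay at percentiles 53.4 and 49.2 of genes of their GC content, near the middle.

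The 17 further target genes, which with 5 of the genes above make up a widely used YAP and TAZ target set, gave no common direction. Of the 16 tested, 9 were positive and 7 negative, with a median log2 fold change of 0.18. At an unadjusted p under 0.05, 2 of the 16 stood higher, *CCDC80* and *MYOF*, and 0 lower, so the higher share was close to the 13.1% of all genes. *CCDC80*, which encodes a secreted matrix protein, had 59.2, 60.3 and 58.0 CPM in the GC0643 libraries against 45.1, 48.4 and 35.7 in the controls, which did not overlap. Its log2 fold change was 0.46 (unadjusted p = 0.0045, adjusted p = 0.26 by edgeR's quasi-likelihood test) and 0.25 (unadjusted p = 0.026) with the GC correction. *MYOF*, a membrane repair protein of the ferlin family, had 12.8, 8.26 and 11.9 CPM against 7.04, 9.75 and 6.74, which overlapped, and a log2 fold change of 0.49 (unadjusted p = 0.031), or 0.39 (unadjusted p = 0.056) with the correction. *CRIM1*, a transmembrane protein that binds BMPs, had a log2 fold change of 0.29 (unadjusted p = 0.054), and of 0.24 (unadjusted p = 0.043) with the correction. These targets stood on the positive side and *CCN1*, *AMOTL2* and *AJUBA* on the negative side, so the estimates for known targets of YAP and TAZ lay on both sides of 0. After the GC correction, 4 of the 49 further pathway genes stood higher at an unadjusted p under 0.05 (*FRMD6*, *CCDC80*, *CRIM1* and, named after its values were seen, *FAT4*) and 0 lower, against the background of 3.83% and 2.48%. Of the 12 further targets with a promoter window, 5 held the motif (*AXL*, *FOXF2*, *PTPN14*, *NUAK2* and *TGFB2*), against 16.7% of all genes with a window. The windows of *CCDC80* and *MYOF* did not hold these letters.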

How the data were processed

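Raw counts per Ensembl gene were deposited for 6 HGC-27 libraries, 3 per group. Libraries were built with a NEBNext Ultra kit. For the deposited counts, the submitters' processing notes name Trimmomatic 0.32 (read trimming), HISAT2 2.1.0 (alignment, GRCh38) and featureCounts 2.0.0 (counting), and the annotation, strand setting and handling of reads that map to several genes are not given in the sources used here. Genes were matched to GENCODE version 44 (58472 of 58825), the source of symbols and positions and, from each canonical transcript, of length and GC content.

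Tests were run with edgeR 4.0.16, DESeq2 1.42.0 and limma 3.58.1 under R 4.3.3, and figures were drawn with matplotlib 3.10.9 under Python 3.11.15. After filterByExpr and TMM scaling, edgeR's quasi-likelihood test was run with group as the only term, with Benjamini-Hochberg adjustment across 19528 genes. The biological coefficient of variation was 14.8%. A positive log2 fold change means a higher level in the libraries labelled GC0643 overexpression. Ratios per length were compared by exact two-sided permutation tests of log2 ratios. Over the 10 ratios and shares the lowest exact p was 0.1, which is 0.333 after Benjamini-Hochberg adjustment. The GC correction subtracted a loess curve (span 0.3) per library through offsets, fitted to log2 CPM with a prior count of 1. The fits were tested on simulated counts with known fold changes. These counts held no trend with GC content, so they do not test how well the GC correction removes one. Alternatives were other tools, scalings, filters, a replicate block, GC and length corrections, and leaving out each library. Within each group, no 2 libraries had counts that agreed within sampling noise. Of the 53 other pathway genes, those named by rule are the 3 with the smallest p in each of 3 groups, with paralogs of the 10 genes for levels. *STRN4* and *FAT4* were named after their values were seen, and the further targets that hold the motif were named for their promoter windows. The 10 genes and the lists were chosen with earlier results of these data known. The result of 1 gene of the marker lists is not reported here.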

Additional observations from a re-analysis of the deposited data

How the results depend on the processing

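Among the 10 genes, none passed the adjusted threshold in any fit of all 6 libraries, and leaving out 1 library gave 0 to 2 genes, the 2 being without vector control replicate 2, where 19.1% of all genes passed. The count of 1 gene higher at an unadjusted p under 0.05 became 0 with DESeq2, limma voom, DESeq2 size factors, library size alone, a filter of CPM over 1 in at least 3 libraries, the length correction and the GC correction, and was 0 to 2 when a library was left out. The count of 1 gene lower became 2 with DESeq2 size factors, 3 with the length correction and 0 with the GC correction, and was 0 to 4 when a library was left out. Of the 53 other pathway genes, none passed the adjusted threshold. The likelihood ratio test called 1, beside 16 of all 19528 genes, and DESeq2 called 1, beside 11 of 12713. With no filter on low counts 2 passed, beside 224 of 36223 genes. Leaving out a library gave 0 to 17. The 17 (of 50 tested) were in the fit without vector control replicate 2, where 19.1% of all genes passed. The 14 of these genes that stood higher at an unadjusted p under 0.05 became 4 with the GC correction and 8 with the length correction (5 to 21 when a library was left out). The 1 that stood lower became 3 with DESeq2, 3 with DESeq2 size factors, 5 with no filter, 2 with CPM over 1, 7 with the length correction and 0 with the GC correction (0 to 10 when a library was left out). A fit without vector control replicate 2 and with the GC correction, chosen after seeing the data, gave 0 of the 10 genes higher and 1 lower. It gave 11 of the 50 other genes tested higher and 0 lower, where 8.4% of all genes stood higher and 4.12% lower. With the replicate block, 0 of the 10 genes stood higher and 0 lower, and 11 of the other genes stood higher and 0 lower. With block and GC correction together these counts were 0, 0, 1 and 0, beside 477 higher and 283 lower of all 19528 genes. Counts over all genes moved with the setting as well. At an unadjusted p under 0.05, 2553 of 19528 genes stood higher and 1028 lower in edgeR's quasi-likelihood test. These became 748 and 484 with the GC correction, 1829 and 1409 with the length correction, and 1945 and 314 with the replicate block. DESeq2 gave 2089 and 1404, and its size factors 2194 and 1445. Leaving out a library gave 827 to 4564 higher and 367 to 2842 lower. Deviations of log2 CPM from the mean of the own group were correlated between libraries of the 2 groups. For libraries with the same number the correlations were −0.22, −0.04 and −0.32, and none correlated best with its own number. No pairing by number was seen, but the check cannot exclude pairing, because the deviations within a group of 3 libraries are not independent. The causes of these shifts were not tested. Depth limits *ANKRD1*, with 1 count in all. *CCN2* is limited by low counts and by their spread between libraries, from 33 to 69.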
